A study of Mus musculus with 17 samples.

Results

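Voltage-gated sodium channels, voltage-gated calcium channels and HCN channels were examined in the mouse hippocampus through 33 protein-coding genes, taken from a table of 55471 genes. They are members of a set of 36 genes chosen because the symbol started with Cacna, Cacnb, Hcn plus 1 digit, or Scn plus a digit. The 33 members described comprised 9 sodium channel pore genes, 3 sodium channel beta genes, 10 calcium channel pore genes, 4 alpha2delta genes, 4 calcium channel beta genes and 3 HCN genes. The rule used names and no measured value. Epithelial sodium channel genes (Scnn1a, Scnn1b and Scnn1g) and Scnm1, a splicing factor gene, were not members. Symbols came from an annotation of the mouse genome build GRCm38 that held 99.6% of the gene identifiers.

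Sodium channels open on depolarization and carry the rising phase of the action potential, and their beta subunits set gating and surface density. Calcium channels couple depolarization to transmitter release, dendritic spikes and signalling to the nucleus, and their alpha2delta and beta subunits bring the pore to the membrane. HCN channels open on hyperpolarization and, in hippocampal pyramidal cells, carry a current that dampens dendritic excitability. Mutations in several of these genes cause epilepsy, and ethosuximide and the gabapentinoids act on their products.

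Total RNA was sequenced from hippocampi of mice aged 3 to 6 months on a C57BL/6J background, with tamoxifen given to mice of both genotypes. CBP-ifKOs carried floxed Crebbp and a Camk2a-creERT2 transgene, which acts in forebrain excitatory neurons only, and so made a truncated CBP without acetyltransferase activity in those cells. Control littermates lacked creERT2 according to the study's methods, although a label field lists the transgene for them as well. Sal mice received saline and were not kindled. PTZ0 mice were kindled with the convulsant pentylenetetrazole (PTZ) at 45 mg/kg on alternate days and received saline at the end, and PTZ45 mice were kindled in the same way and received 45 mg/kg PTZ at the end. Hippocampi were dissected 45 min after that injection. According to the paper, all controls came to seize under the PTZ schedule, while no CBP-ifKO reached the stage of progressive seizures. Kindled therefore names the PTZ schedule here and not a state that both genotypes reached. Each group had 3 libraries, except Control PTZ45 with 2. The labels name each library as a separate sample but do not number the animals, so p-values measure the spread between these libraries.

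The libraries held 5831992 to 18735643 counts each, and no pair within a group agreed within counting noise. Crebbp held 1824 to 2429 normalized counts in the 8 control libraries and 1061 to 1337 in the 9 CBP-ifKO libraries, which do not overlap. Esr1, which shares sequence with creERT2, was higher in every CBP-ifKO library (log2 fold change 3.81). Excitatory neuron markers were abundant in every library, with a summed level between 37442 and 51991 normalized counts. Sequencing lanes followed the groups: lane 3 held Control Sal and Control PTZ0, lane 4 held Control PTZ45 and CBP-ifKO Sal, and lane 5 held both kindled CBP-ifKO groups. No comparison of the genotypes within a treatment shared a lane, so genotype and lane cannot be told apart there. Of the treatment comparisons, PTZ0 against Sal in controls and PTZ45 against PTZ0 in CBP-ifKOs each stayed within a lane. The others, and the interaction, crossed lanes, so treatment and lane cannot be told apart in them. In bulk RNA, fewer cells of a type cannot be told apart from less RNA per cell.

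Levels were compared between genes as normalized counts per kb of exon, averaged over the 17 libraries with the SD between them. Of the 33 members, 26 averaged 50 normalized counts or more and 16 averaged above 1000. The 8 genes with the highest levels held 64.98% of the summed level of the 33. These were, from the top, Scn2a, Scn2b, Scn3b, Cacna1e, Cacna2d1, Scn8a, Scn1a and Cacnb4. Dividing by the longest transcript in place of all exons kept Scn2a first, moved Scn2b to rank 5, Cacnb4 to rank 10 and Cacnb2 from rank 17 to 11, and brought Cacna2d3 from rank 11 to 7.

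**Figure D1:**
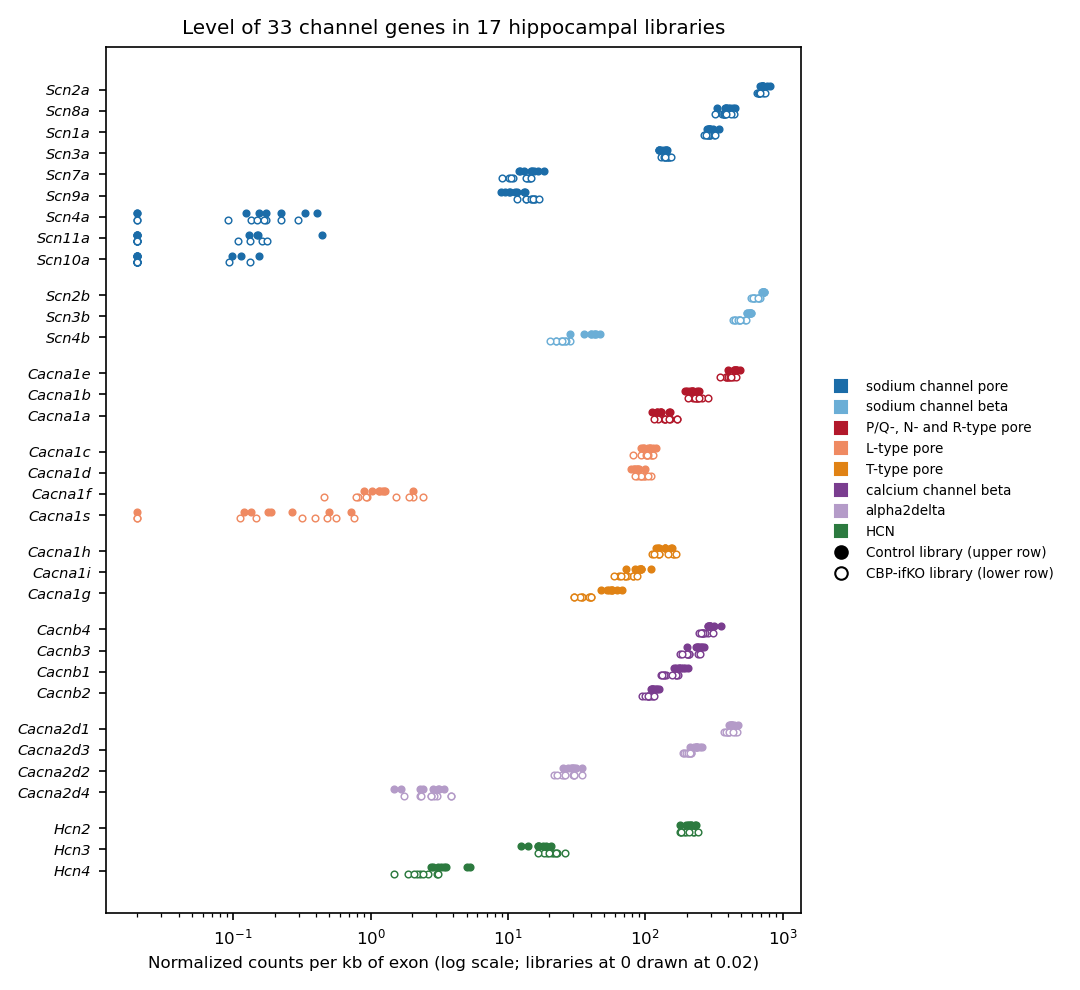
Normalized counts per kb of exon (log scale) for the 33 members, grouped by role, with 1 point per library (filled, control; open, CBP-ifKO) and libraries at 0 drawn at 0.02. Levels ran from Scn2a at 706 down to Scn10a at 0.0347.

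Among the sodium channel pore genes, Scn2a (Nav1.2, the main channel of excitatory axons) had the highest level at 706 ± 40.3 per kb. Scn8a (Nav1.6, the channel of the mature axon initial segment) followed at 389.6 ± 34.1, Scn1a (Nav1.1, important in interneurons) at 296 ± 19.05 and Scn3a (Nav1.3, mainly embryonic) at 139 ± 8.49. The gaps between these neighbours exceeded their SDs. Scn7a at 13.5 ± 2.42 and Scn9a (Nav1.7, known from pain fibres) at 12.96 ± 2.40 did not differ beyond their spread. Scn4a (skeletal muscle) and the sensory neuron genes Scn10a and Scn11a had 18, 5 and 10 counts in all 17 libraries together, and each was at 0 in at least 1 library, where 0 still allows 3 counts.

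Among the sodium channel beta genes, Scn2b was at 676 ± 48.9 per kb and Scn3b at 526 ± 53.7, while Scn4b, whose product is linked to resurgent sodium current, was at 31.8 ± 8.93. Scn2b and Scn4b are neighbours on chromosome 9, 8324 bases apart on the same strand. Scn3a, Scn2a, Scn1a, Scn9a and Scn7a form a cluster on chromosome 2 that spans 1.33 Mb.

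Of the calcium channel pores, the R-type gene Cacna1e led at 427 ± 36.3 per kb. The N-type gene Cacna1b at 230.5 ± 22.6 and the P/Q-type gene Cacna1a at 138 ± 17.3, whose channels trigger transmitter release, came next. The L-type genes Cacna1c and Cacna1d, which signal to the nucleus, were at 104 ± 9.57 and 91.9 ± 8.64, whereas retinal Cacna1f was at 1.28 ± 0.532 and skeletal muscle Cacna1s at 0.287 ± 0.245 with 32 counts in all. Among the low-threshold T-type genes, Cacna1h at 137 ± 17.5 was above Cacna1i at 81.6 ± 13.3 and Cacna1g at 45.7 ± 11.9. Cacna1a, Cacna1h and Scn3a lay within their SDs of each other.

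Every calcium channel beta gene was well detected, from Cacnb4 at 285 ± 27.4 per kb through Cacnb3 at 225 ± 27.4 and Cacnb1 at 165 ± 22.8 to Cacnb2 at 111 ± 7.94. Per kb of the longest transcript the order was Cacnb3 (329.9), Cacnb4 (311), Cacnb2 (292) and Cacnb1 (219.6). Among the alpha2delta genes, Cacna2d1, the gabapentin receptor, was at 421 ± 26.001, Cacna2d3 at 220.2 ± 20.5, Cacna2d2 at 28.4 ± 3.72 and Cacna2d4 at 2.70 ± 0.697. Cacna1e and Cacna2d1 did not differ beyond their spread. Hcn2 was at 207 ± 20.03, with Hcn3 at 18.9 ± 3.34 and Hcn4 at 2.96 ± 1.01 far below. The strand setting of the counting was not stated, and genes on the opposite strand cover 17.1% of the exon bases of Hcn3, 15.99% of Cacnb4 and 19.98% of Cacna1s, so part of their counts may belong to Pklr, A430018G15Rik and Gm37759.

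The first question was whether PTZ changed these genes, as it did Fos and Npas4. PTZ45 against Sal compares kindled mice after a PTZ injection with mice that were neither kindled nor given PTZ, so kindling and the injection cannot be told apart in it. These groups also lay in different lanes in each genotype. Fos was higher in PTZ45 than in Sal by 6.08 on the log2 scale in controls and by 2.91 in CBP-ifKOs. No member passed the test in either genotype. With the Wald test of DESeq2 and a Benjamini-Hochberg adjusted p under 0.05 over all genes, which is what a call means throughout, 0 of 28 members tested were called in controls, where 1.17% of 17367 genes were called. In CBP-ifKOs, 0 of 29 members were called, against 0.294% of 19757 genes. Without adjustment, p was under 0.05 for 3 members in controls and 4 in CBP-ifKOs, and edgeR also called 0 members in each.

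Cacna1h, the most abundant T-type gene, had the lowest value in both genotypes. Cacna1h held 1350.3, 1511 and 1532 in Sal, 1354, 1218 and 1361 in PTZ0, and 1230.1 and 1162 in PTZ45 normalized counts in controls. In CBP-ifKOs Cacna1h held 1236, 1579 and 1548 in Sal, 1631, 1419.6 and 1206 in PTZ0, and 1233, 1091 and 1126 in PTZ45. The PTZ45 libraries lay below the Sal libraries in both genotypes, in a comparison where 34% of 13112 genes in controls and 14.6% of 12940 genes in CBP-ifKOs did not overlap. PTZ45 against Sal gave a log2 fold change of -0.29 (95% interval -0.49 to -0.10) with an adjusted p of 0.164 in controls. In CBP-ifKOs it gave -0.34 (95% interval -0.55 to -0.12), with an adjusted p of 0.316 that became 0.0057 without CBP-ifKO Sal replicate 1. The highest value was that of Scn2a, the leading pore gene, in controls, 0.16 ± 0.07 (SE, adjusted p = 0.515), and that of Scn7a in CBP-ifKOs, 0.49 ± 0.23 (SE, adjusted p = 1).

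Other treatment comparisons called no member either. PTZ45 against PTZ0, the comparison of the injection within kindled mice, called 0 of 29 members in controls, where 1.25% of genes were called, and 0 of 30 in CBP-ifKOs, where 0.0872% were, with 4 and 5 members at an unadjusted p under 0.05. In controls Scn7a was lowest with -0.31 ± 0.23 and Scn9a highest with 0.29 ± 0.21. In CBP-ifKOs, where this pair of groups shared a lane, Cacna1g was lowest with -0.34 ± 0.12 and Scn7a highest with 0.11 ± 0.21, a value that was -0.0022 without CBP-ifKO PTZ0 replicate 1. Without Control PTZ45 replicate 1, which leaves a lone PTZ45 library that is assumed to vary like the PTZ0 libraries, 4 members were called in controls, namely Cacnb4, Scn1a and Scn2a higher and Cacna1i lower, of 21 tested, and 7.16% of 6973 genes were called. PTZ0 against Sal, the comparison of kindled with non-kindled mice, called 0 of 33 members in each genotype. The share of all genes called there was 0.00843% in controls and 0.0112% in CBP-ifKOs, and p without adjustment was under 0.05 for 1 and 0 members. The extremes were Scn9a with -0.16 ± 0.18 and Hcn3 with 0.06 ± 0.23 (-0.06 without Control Sal replicate 2) in controls, and Cacna2d2 with -0.22 ± 0.17 and Scn7a with 0.38 ± 0.24 in CBP-ifKOs. In these 4 comparisons edgeR called 0 members as well.

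Log2 fold changes of the members went with GC content in the treatment comparisons. For PTZ45 against Sal, the log2 fold changes of the 26 members with a mean of at least 50 had a Spearman correlation of -0.588 with the GC content of the longest transcript in controls and of -0.904 in CBP-ifKOs. PTZ45 against PTZ0 gave -0.528 and -0.814 over the members, PTZ0 against Sal gave -0.343 and -0.56, and the genotype comparisons gave between -0.198 and -0.012. For PTZ45 against Sal the correlation over all genes of that level was -0.556 in 13105 genes and -0.544 in 12934. Cacna2d1, Cacnb2, Cacnb4, Scn1a, Scn2a, Scn3a and Scn9a, with GC contents from 38.97% to 43.4%, had values above 0 in both genotypes, whereas Scn7a, with 40.2%, had -0.29 in controls and 0.49 in CBP-ifKOs. The T-type genes, Cacnb1, Cacnb3, Hcn2 and Hcn3, with 58.05% to 65.4%, had values below 0 in both, whereas Cacna1a, with 58.4%, had 0.10 in controls and -0.19 in CBP-ifKOs. These points share libraries and are genes, not replicates. After the trend with GC content was removed from each library, 0 members were called in both genotypes and 1 member in each had an unadjusted p under 0.05.

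**Figure D2:**
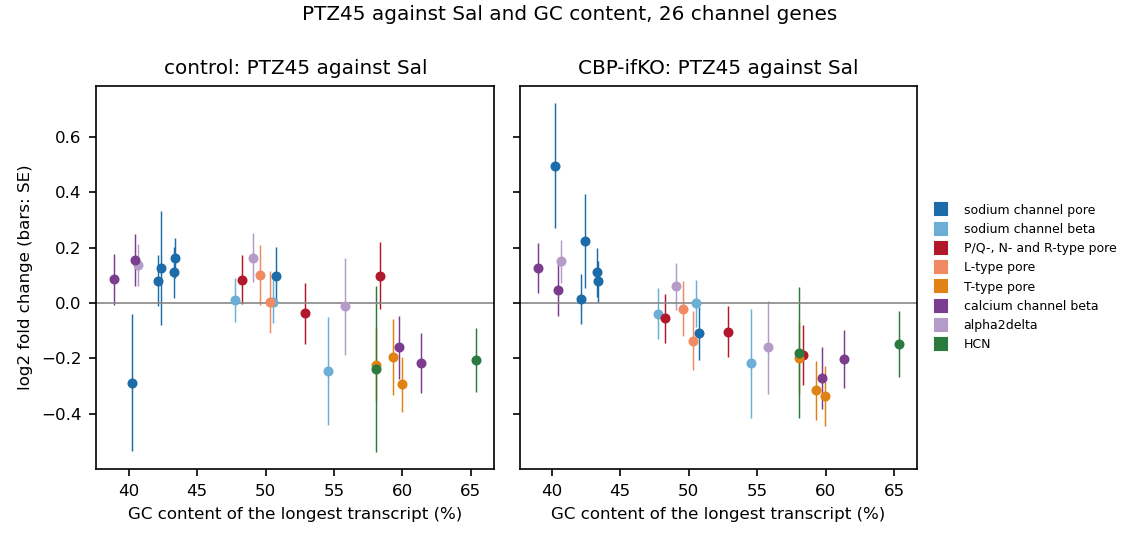
Log2 fold change of PTZ45 against Sal (bars, SE) over the GC content of the longest transcript for 26 members, in controls (left) and CBP-ifKOs (right). Values decline with GC content in both panels, with correlations of -0.588 and -0.904.

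The second question was whether loss of CBP function in excitatory neurons changed these genes. Over all treatments, with treatment as a term in the fit, 13 of 29 members tested were lower in CBP-ifKOs and 2 were higher, against 11.5% lower and 7.76% higher of 18682 genes (19.3% in all). The 11 auxiliary subunit genes, all tested, gave 8 lower calls and 0 higher calls. The 22 pore genes, of which 18 were tested, gave 5 lower and 2 higher. The 3 sodium channel beta genes and the 4 calcium channel beta genes were lower. The median log2 fold change of the 26 members with a mean of at least 50 was -0.11, and it was 0.0023 over 13041 genes of that level. With the sequencing lane as a further term, chosen after seeing the data, 1 member remained called, Cacna1g, and 0.863% of all genes were called. That fit has as many terms as there are groups, and it takes the genotype difference to be the same in each treatment. Its genotype value amounts to the difference in Sal minus that in PTZ0 plus that in PTZ45. It cannot separate lane from a genotype difference that varies with treatment. In that fit 12 of the 13 members called lower kept a log2 fold change below 0, from -1.04 (Cacna1g) to -0.19 (Cacnb4), and the SEs of the 13 were 2.94 to 3.38 times as large. Scn4b had -0.60 (SE 0.29) and Scn3b -0.32 (SE 0.14) there.

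**Figure D3:**
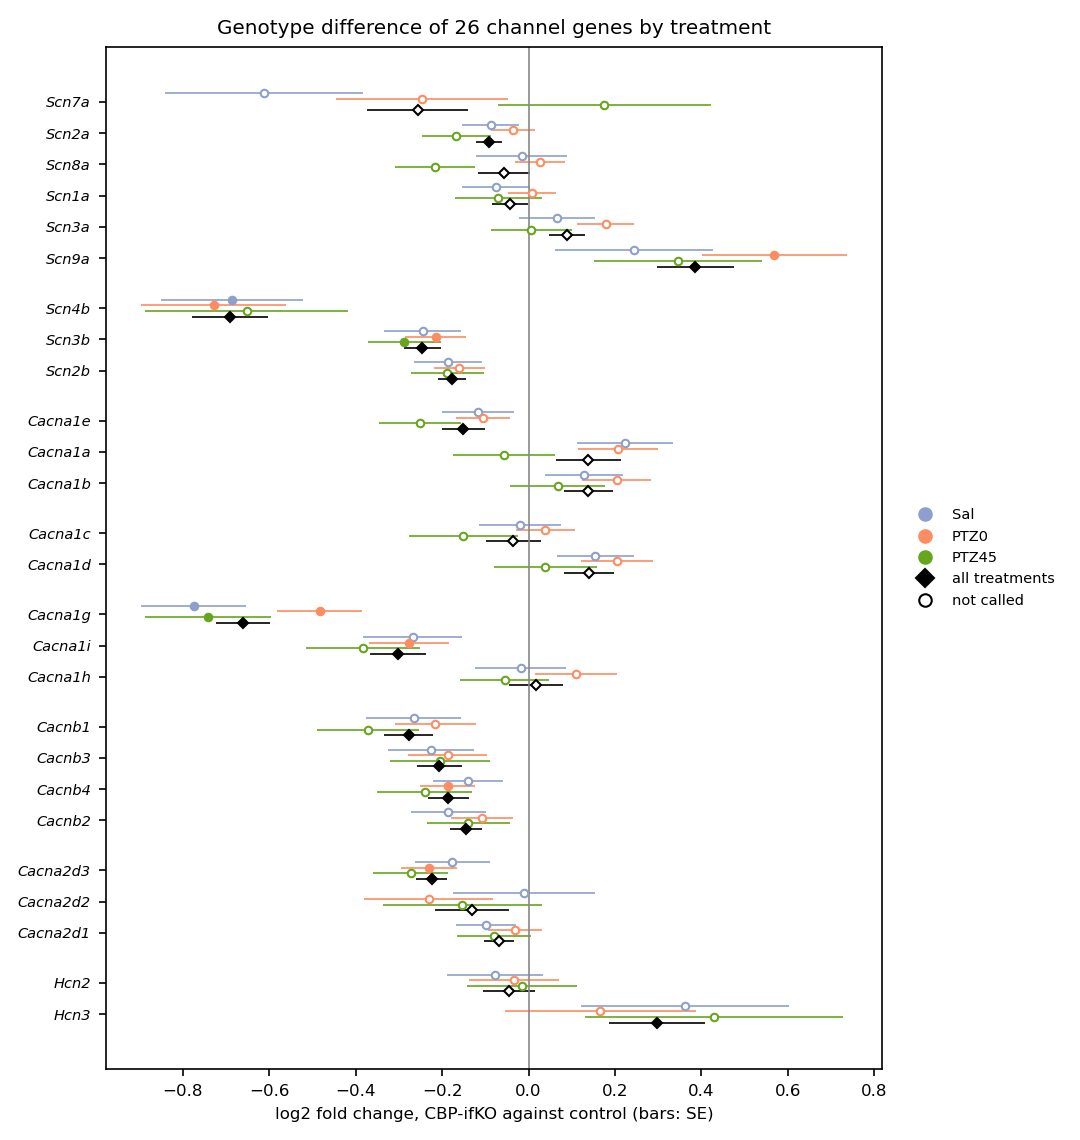
Log2 fold change of CBP-ifKOs against controls (bars, SE) for 26 members within each treatment and over all treatments; filled symbols passed the test. The 7 beta subunit genes lie below 0 in every treatment, and Cacna1g and Scn4b lie farthest below.

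Cacna1g (Cav3.1, a T-type pore known for burst firing) fell in each treatment. Cacna1g held 554, 628 and 682 in Sal, 579, 572 and 538 in PTZ0, and 579 and 485 in PTZ45 normalized counts in controls. Cacna1g in CBP-ifKOs held 348, 405 and 349 in Sal, 409, 393 and 405 in PTZ0, and 306, 341 and 307 in PTZ45. Every CBP-ifKO library was below every control library. Over all treatments Cacna1g fell by 36.7% (log2 fold change -0.66, SE 0.06, adjusted p = 7.03e-23). The log2 fold change was -0.77 ± 0.12 (SE) in Sal, -0.48 ± 0.10 in PTZ0 and -0.74 ± 0.15 in PTZ45, with adjusted p of 1.22e-07, 6.98e-05 and 4.46e-05. The call held in Sal, in PTZ0 and over all treatments under each alternative that gave a value. That includes the lane term (-1.04, SE 0.19, DESeq2 adjusted p = 1.57e-05), whose value holds the PTZ0 difference with its sign turned. In PTZ45 the call was lost without Control PTZ45 replicate 1, which leaves a lone control library. Both fits with the replicate number as a block lost it too.

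The other T-type genes differed from Cacna1g in size or call. Cacna1i (Cav3.3) held 889.8, 826 and 1088 in Sal, 926, 917 and 899.8 in PTZ0, and 924 and 712 in PTZ45 normalized counts in controls. Cacna1i in CBP-ifKOs held 810.3, 809 and 723 in Sal, 866, 701 and 704 in PTZ0, and 636, 658 and 587 in PTZ45. The genotypes overlapped through control PTZ45 replicate 2 and CBP-ifKO PTZ0 replicate 1. Cacna1i fell over all treatments (log2 fold change -0.30, SE 0.07, adjusted p = 6.94e-05) and in PTZ0 (adjusted p = 0.0421). Its PTZ0 call was lost under 13 of 14 alternatives. Cacna1h, whose values stand above, overlapped between genotypes and was not called (log2 fold change 0.02, SE 0.06, adjusted p = 0.88; 95% interval -0.10 to 0.14). With the lane term the value of Cacna1h was -0.18 (SE 0.19).

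Among the sodium channel beta genes, Scn4b differed most over all treatments. Scn4b held 217, 199 and 209.7 in Sal, 202, 232 and 177 in PTZ0, and 142 and 213 in PTZ45 normalized counts in controls. Scn4b in CBP-ifKOs held 122, 141 and 132 in Sal, 127, 111 and 130.1 in PTZ0, and 112, 123 and 101 in PTZ45. The 2 genotypes did not overlap, and the highest CBP-ifKO library was just below the lowest control library, Control PTZ45 replicate 1. Scn4b fell by 38.04% over all treatments (log2 fold change -0.69, SE 0.09, adjusted p = 3.74e-13). It was also called in Sal (log2 fold change -0.69, SE 0.17, adjusted p = 0.00351) and in PTZ0 (log2 fold change -0.73, SE 0.17, adjusted p = 0.000697), and had -0.65 ± 0.23 (SE) in PTZ45 with an adjusted p of 0.117. The Sal call was lost without Control Sal replicate 1 (adjusted p = 0.0823), Control Sal replicate 3 (0.0823) or CBP-ifKO Sal replicate 1 (0.0863), and the PTZ0 call without Control PTZ0 replicate 2 (0.0602). Both fits with the replicate number as a block also lost the Sal call, and at least 1 of them lost the PTZ0 call.

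Scn3b and Scn2b fell by less. Scn3b held 3026, 3219.7 and 3119.9 in Sal, 3028, 3229 and 3153 in PTZ0, and 3136 and 3159.5 in PTZ45 normalized counts in controls. Scn3b in CBP-ifKOs held 2390.0, 2619 and 2912 in Sal, 2958, 2681 and 2473 in PTZ0, and 2462, 2585 and 2678 in PTZ45. Scn3b did not overlap between genotypes and fell by 15.7% (log2 fold change -0.25, SE 0.04, adjusted p = 3.44e-07). It was called in PTZ0 (adjusted p = 0.0356) and PTZ45 (0.0261), and these calls were lost under 11 of 14 and 8 of 13 alternatives. Scn2b held 3350.4, 3306 and 3327 in Sal, 3397, 3393 and 3351 in PTZ0, and 3294 and 3393 in PTZ45 in controls. Scn2b in CBP-ifKOs held 2742, 2928 and 3123 in Sal, 3166, 3068 and 2847 in PTZ0, and 2882, 2827 and 3087 in PTZ45. All CBP-ifKO libraries lay below all control libraries, and Scn2b fell by 11.6% (log2 fold change -0.18, SE 0.03, adjusted p = 1.42e-06).

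Of the 4 genes whose libraries did not overlap between genotypes over all treatments, 3 were sodium channel beta genes (Scn2b, Scn3b and Scn4b) and the other was Cacna1g, that is 4 of 26 members with a mean of at least 50, while 3.96% of 13041 genes did not overlap.

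**Figure D4:**
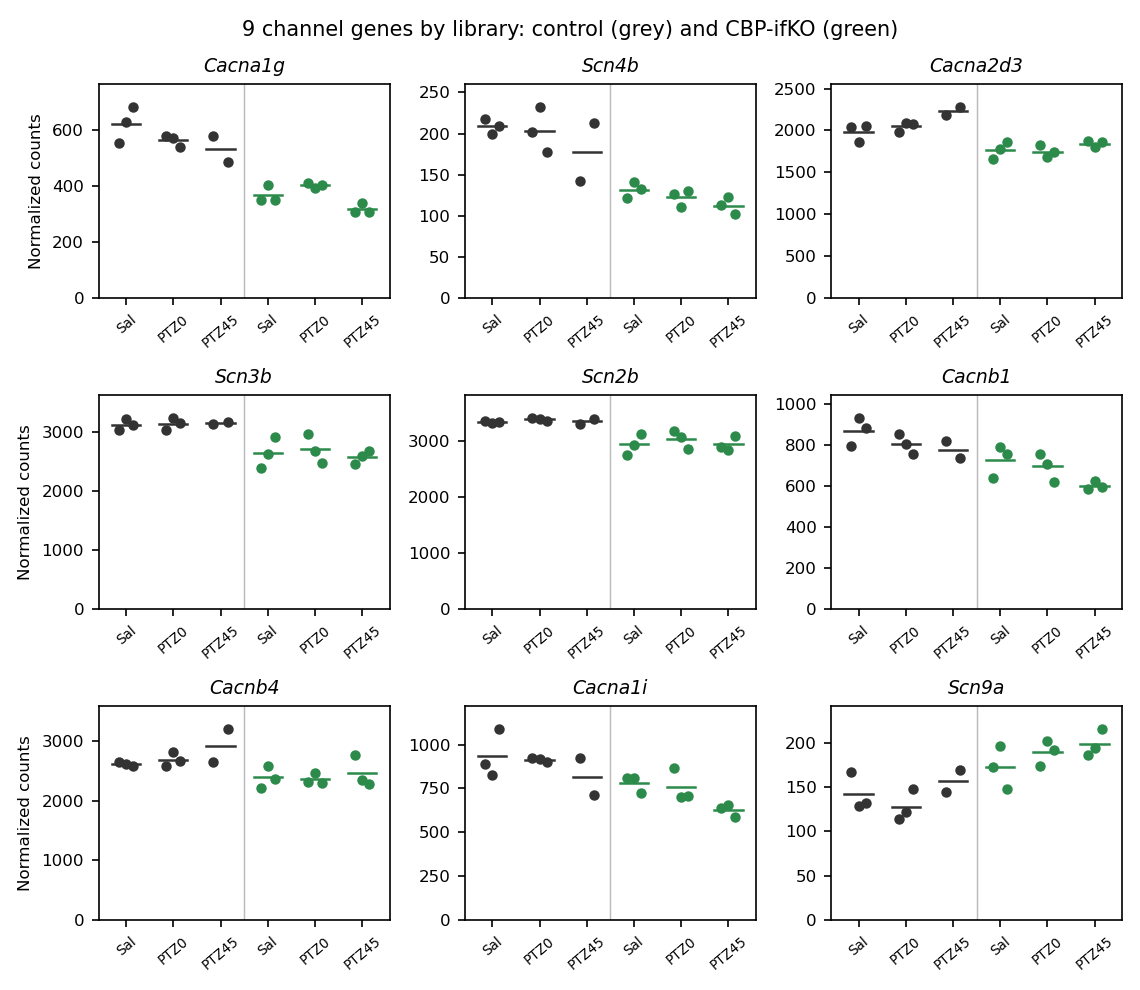
Normalized counts of 9 members in each library (points) with group means (lines), controls in grey on the left and CBP-ifKOs in green on the right of each panel. Cacna1g, Scn4b, Scn3b and Scn2b do not overlap between genotypes; Scn9a is the panel in which CBP-ifKOs lie higher.

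Promoter sequence is shown for the neighbours Scn2b and Scn4b, for Cacna1i and for Scn9a, which are some of the members called over all treatments, in different directions. CBP is recruited by CREB, which binds the cAMP response element. The windows run from 250 bases before to 50 bases after the start site, 5′ to 3′ on the gene's strand, from RefSeq on GRCm38.p6, and capitals mark the letters TGACG or their reverse complement CGTCA. The Scn2b window lies at chr9:45117626-45117925, plus strand, Scn4b at chr9:45138374-45138673, plus strand, Cacna1i at chr15:80286988-80287287, plus strand and Scn9a at chr2:66634913-66635212, minus strand.
Scn2b: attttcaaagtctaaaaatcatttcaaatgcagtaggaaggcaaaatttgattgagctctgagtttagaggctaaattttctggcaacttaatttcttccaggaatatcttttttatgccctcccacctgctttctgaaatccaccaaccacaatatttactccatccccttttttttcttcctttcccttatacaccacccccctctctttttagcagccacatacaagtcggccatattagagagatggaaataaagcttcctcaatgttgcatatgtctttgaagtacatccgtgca
Scn4b: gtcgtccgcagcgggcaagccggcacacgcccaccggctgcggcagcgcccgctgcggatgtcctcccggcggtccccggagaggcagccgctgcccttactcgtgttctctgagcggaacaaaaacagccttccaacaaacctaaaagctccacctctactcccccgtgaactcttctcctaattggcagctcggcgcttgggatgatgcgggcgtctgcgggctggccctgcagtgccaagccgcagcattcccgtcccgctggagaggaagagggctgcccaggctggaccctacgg
Cacna1i: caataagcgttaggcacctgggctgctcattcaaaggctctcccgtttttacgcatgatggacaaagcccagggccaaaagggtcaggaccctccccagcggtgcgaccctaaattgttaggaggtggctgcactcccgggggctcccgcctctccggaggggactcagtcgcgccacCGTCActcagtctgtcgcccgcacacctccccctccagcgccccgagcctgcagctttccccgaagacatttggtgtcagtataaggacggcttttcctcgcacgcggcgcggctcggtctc
Scn9a: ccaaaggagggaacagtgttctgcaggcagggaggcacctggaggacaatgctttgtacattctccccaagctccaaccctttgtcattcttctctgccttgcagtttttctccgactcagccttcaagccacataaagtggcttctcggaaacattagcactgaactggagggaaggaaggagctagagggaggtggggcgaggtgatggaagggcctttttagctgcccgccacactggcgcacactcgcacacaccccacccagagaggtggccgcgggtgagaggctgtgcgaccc

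Of these 4 windows, only that of Cacna1i held the 5-letter half-site, 72 bases before its start site. Among the called members whose windows are not shown, Cacnb2 held it in a window, 117 bases before the start site there. RefSeq windows matched 26 of the 33 members, with 36 windows, and Cacna1g and Scn3b had no entry. On either strand, the full element TGACGTCA, which contains the half-site on both strands, was in 0 of 36 member windows and in 1.79% of 32851 windows of all genes. The half-site was in 6 member windows (16.7%) and in 20.8% of all windows, and the AP-1 letters TGANTCA were in 0 member windows and in 7.81% of all. A match of letters is a description of the window and not a bound site.

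Calcium channel beta subunits chaperone the pore and set its gating. Cacnb1 held 796, 932 and 886 in Sal, 858, 805 and 759 in PTZ0, and 822 and 737 in PTZ45 normalized counts in controls. Cacnb1 in CBP-ifKOs held 642, 791 and 757 in Sal, 758, 710.3 and 622 in PTZ0, and 586, 625 and 595 in PTZ45. The genotypes did not overlap within any treatment, as was so for 22% of genes in Sal, 28.6% in PTZ0 and 34.6% in PTZ45, but did overlap across treatments. Cacnb1 fell over all treatments (log2 fold change -0.28, SE 0.06, adjusted p = 1.77e-05).

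Cacnb3 held 951, 1074 and 1019.8 in Sal, 1042, 982 and 977 in PTZ0, and 932 and 815 in PTZ45 normalized counts in controls. Cacnb3 in CBP-ifKOs held 826, 967 and 834 in Sal, 1009, 829.6 and 805 in PTZ0, and 719, 803 and 749 in PTZ45. The ranges overlapped, and Cacnb3 fell over all treatments (log2 fold change -0.21, SE 0.05, adjusted p = 0.000988), a call lost in a fit with the replicate number as a block. Cacnb4 held 2655, 2613 and 2589 in Sal, 2584, 2823 and 2660.3 in PTZ0, and 2646 and 3201 in PTZ45 in controls. Cacnb4 in CBP-ifKOs held 2219, 2583 and 2373 in Sal, 2307, 2462 and 2306 in PTZ0, and 2774, 2353 and 2280.3 in PTZ45. CBP-ifKO PTZ45 replicate 1 lay within the control range, and Cacnb4 fell over all treatments (log2 fold change -0.19, SE 0.05, adjusted p = 0.00137) and in PTZ0 (adjusted p = 0.0467), a call lost under 11 of 14 alternatives.

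Cacnb2 held 1485, 1606 and 1505 in Sal, 1491, 1455 and 1531 in PTZ0, and 1677 and 1574 in PTZ45 normalized counts in controls. Cacnb2 in CBP-ifKOs held 1263, 1403 and 1392 in Sal, 1378, 1467 and 1312 in PTZ0, and 1500.4, 1388 and 1534 in PTZ45. The genotypes did not overlap in Sal and PTZ45, as was so for 22% and 34.6% of genes, but overlapped in PTZ0. Cacnb2 fell over all treatments (log2 fold change -0.14, SE 0.04, adjusted p = 0.00152).

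Among the alpha2delta genes, Cacna2d3 was the 1 called. Cacna2d3 held 2039.9, 1862 and 2058 in Sal, 1979, 2093 and 2082 in PTZ0, and 2183 and 2276 in PTZ45 normalized counts in controls. Cacna2d3 in CBP-ifKOs held 1653, 1776 and 1864 in Sal, 1825, 1678 and 1739.5 in PTZ0, and 1872, 1799 and 1857 in PTZ45. The overlap was small, since the highest CBP-ifKO library was just above the lowest control library, Control Sal replicate 2. Cacna2d3 fell over all treatments (log2 fold change -0.22, SE 0.04, adjusted p = 1.37e-08) and in PTZ0 (log2 fold change -0.23, SE 0.06, adjusted p = 0.0103). The PTZ0 call was lost without any 1 control library or without CBP-ifKO PTZ0 replicate 3, with adjusted p of 0.0501, 0.162, 0.141 and 0.0992. A fit with the replicate number as a block lost this call as well.

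Cacna2d1, the most abundant of its class, held 5171, 5089 and 5276 in Sal, 5250.2, 5237 and 5323 in PTZ0, and 5524 and 5883 in PTZ45 normalized counts in controls. Cacna2d1 in CBP-ifKOs held 4689.6, 4887 and 4980.0 in Sal, 5044, 5591 and 4826 in PTZ0, and 5741, 5042 and 5385 in PTZ45. The ranges overlapped, and the difference over all treatments was not called (log2 fold change -0.07, SE 0.03, adjusted p = 0.161; 95% interval -0.14 to -0.0008), but was called without CBP-ifKO PTZ0 replicate 2 (adjusted p = 0.0184). Cacna2d2 (-0.13, adjusted p = 0.312) and Cacna2d4 (0.15, adjusted p = 0.66) were not called either.

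Of the HCN genes, Hcn3 rose, Hcn4 fell and Hcn2 was not called. Hcn2 held 690.3, 688 and 741 in Sal, 752, 636 and 666 in PTZ0, and 574 and 656 in PTZ45 normalized counts in controls. Hcn2 in CBP-ifKOs held 586, 722 and 717 in Sal, 769, 612 and 633 in PTZ0, and 573, 585 and 664 in PTZ45. The ranges overlapped throughout, and Hcn2 was not called (log2 fold change -0.04, SE 0.06, adjusted p = 0.672; 95% interval -0.16 to 0.07). Hcn3 rose from 69.7 ± 10.9 in controls (SD, n = 8) to 86.6 ± 11.5 in CBP-ifKOs (SD, n = 9), with a DESeq2 adjusted p of 0.0429 that passed the threshold under 11 of 27 alternatives, and with the lane term its log2 fold change was 0.61 (SE 0.38) in place of 0.30. Hcn4 fell from 22.4 ± 5.95 to 14.3 ± 3.22, at low counts (DESeq2 adjusted p = 0.0221), a call lost in 1 fit of all libraries (adjusted p = 0.0695), without Control Sal replicate 2 (0.0571) or Control PTZ0 replicate 1 (0.0948), and with the lane term its log2 fold change was 0.05 (SE 0.74).

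Among the 7 high-voltage calcium channel pores, 1 of 6 tested was called, beside 19.3% of all genes. Cacna1e held 10065, 11635 and 11768 in Sal, 11095, 11558 and 11211 in PTZ0, and 12316 and 11376 in PTZ45 normalized counts in controls. Cacna1e in CBP-ifKOs held 9798, 11027 and 10140.0 in Sal, 11559, 9773 and 10149 in PTZ0, and 10462, 10575 and 8777 in PTZ45. The ranges overlapped, and Cacna1e fell over all treatments (log2 fold change -0.15, SE 0.05, adjusted p = 0.0172), a call lost without Control PTZ45 replicate 1 (adjusted p = 0.0656). Cacna1b (0.14 ± 0.06, SE, adjusted p = 0.0738), Cacna1a (0.14 ± 0.08, adjusted p = 0.205) and Cacna1d (0.14 ± 0.06, adjusted p = 0.0672) had values above 0 and were not called. After removal of the GC trend those 3 genes passed the threshold, with adjusted p of 0.0272, 0.039 and 0.0469. Cacna1b and Cacna1d also passed without CBP-ifKO PTZ0 replicate 2, Control PTZ45 replicate 1 or CBP-ifKO PTZ45 replicate 3, and Cacna1b without Control Sal replicate 3, with adjusted p between 0.00951 and 0.0388. With the lane term the log2 fold changes of Cacna1b, Cacna1a and Cacna1d were -0.0061, -0.038 and -0.0095.

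The L-type gene Cacna1c held 2119, 2365 and 2474 in Sal, 2383, 2145 and 2287 in PTZ0, and 2626 and 2025 in PTZ45 normalized counts in controls. Cacna1c in CBP-ifKOs held 2425, 2432 and 2039.6 in Sal, 2504, 2222 and 2283 in PTZ0, and 2256, 2248 and 1771 in PTZ45. The ranges overlapped and the test did not call it (log2 fold change -0.03, SE 0.06, adjusted p = 0.762; 95% interval -0.16 to 0.09).

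Of the sodium channel pores, Scn9a rose in CBP-ifKOs. Scn9a held 168, 129 and 132 in Sal, 114, 122 and 149 in PTZ0, and 145 and 169 in PTZ45 normalized counts in controls. Scn9a in CBP-ifKOs held 173, 197 and 149 in Sal, 174, 202 and 192 in PTZ0, and 187, 195 and 216 in PTZ45. The genotypes did not overlap in PTZ0 and PTZ45, as was so for 28.6% and 34.6% of genes, but did in Sal. Scn9a rose over all treatments (log2 fold change 0.39, SE 0.09, adjusted p = 0.000257) and in PTZ0 (log2 fold change 0.57, SE 0.17, adjusted p = 0.0164). The PTZ0 call was lost without Control PTZ0 replicate 1 (adjusted p = 0.248), Control PTZ0 replicate 2 (0.159), CBP-ifKO PTZ0 replicate 2 (0.116) or CBP-ifKO PTZ0 replicate 3 (0.144). That call was also lost in a fit with the replicate number as a block. With the lane term, in which the PTZ0 difference counts with its sign turned, the value of Scn9a was 0.015 (SE 0.28).

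Scn2a held 9236, 8887 and 9116 in Sal, 9053, 9198 and 9111 in PTZ0, and 9971 and 10400.0 in PTZ45 normalized counts in controls. Scn2a in CBP-ifKOs held 8382, 8738 and 8601 in Sal, 8675, 9265 and 8728 in PTZ0, and 9633, 8657 and 8878 in PTZ45. The ranges overlapped, and Scn2a fell by 6.16% over all treatments (log2 fold change -0.09, SE 0.03, adjusted p = 0.014), a call that edgeR did not make (adjusted p = 0.0666) and that was lost without Control PTZ45 replicate 2 (adjusted p = 0.0529). With the lane term Scn2a had -0.22 (SE 0.09, adjusted p = 0.473). Its chromosome 2 neighbours Scn1a (-0.04 ± 0.04, SE), Scn3a (0.09 ± 0.04) and Scn7a (-0.26 ± 0.12), and Scn8a (-0.06 ± 0.06), were not called. Without a single library 2 of them passed the threshold, Scn3a without CBP-ifKO Sal replicate 1 (adjusted p = 0.0377) and Scn7a without Control PTZ45 replicate 2 (0.046). With the lane term Scn3a had -0.10 (SE 0.12). Scn4a, Scn10a, Scn11a and Cacna1s had too few counts for an adjusted p, and Cacna1f was not called.

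Within single treatments the test called fewer members. In Sal 2 of 26 members were lower and 0 were higher (2.04% of 15004 genes called, 1.77% lower and 0.267% higher), namely Cacna1g and Scn4b. Hcn3 had the highest value there, 0.36 ± 0.24 (SE, adjusted p = 0.673). In PTZ0 6 of 26 members were lower and 1 was higher (6.68% of 12752 genes called, 5.25% lower and 1.43% higher), namely Cacna1g, Cacna1i, Cacna2d3, Cacnb4, Scn3b and Scn4b lower and Scn9a higher. In PTZ45 2 of 27 members were lower (3.07% of 15224 genes called, 2.82% lower and 0.25% higher), namely Cacna1g and Scn3b, and Hcn3 again had the highest value, 0.43 ± 0.30 (SE, adjusted p = 0.692). The median log2 fold change of the 26 members with a mean of at least 50 was -0.09 in Sal, -0.07 in PTZ0 and -0.15 in PTZ45, beside -0.0053, 0.00094 and 0.0003 over all genes of that level. The 3 treatments share no library, but Control Sal and Control PTZ0 shared a lane, as did CBP-ifKO PTZ0 and CBP-ifKO PTZ45. In Sal 1 member was called without Control Sal replicate 1, Control Sal replicate 3 or CBP-ifKO Sal replicate 1 and 4 without CBP-ifKO Sal replicate 3. In PTZ0 1 was called without Control PTZ0 replicate 2, 2 were without Control PTZ0 replicate 1 or CBP-ifKO PTZ0 replicate 3, and 3 without Control PTZ0 replicate 3. In PTZ45 0 were called without Control PTZ45 replicate 1 and 1 without CBP-ifKO PTZ45 replicate 1 or CBP-ifKO PTZ45 replicate 2.

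The third question was whether the response to PTZ45 depended on genotype. In the interaction of genotype and PTZ45 against Sal, 0 of 29 members were called, beside 0.329% of 20945 genes, and 1 member had an unadjusted p under 0.05. edgeR called 0 members as well. That member was Scn7a, with an interaction of 0.78 ± 0.31 (SE, log2 scale, 95% interval 0.18 to 1.39, unadjusted p = 0.0109, DESeq2). Scn7a, a sodium-sensing channel gene, held 136, 89.9 and 109 in Sal, 109, 121 and 113 in PTZ0, and 96.4 and 88.01 in PTZ45 normalized counts in controls. Scn7a in CBP-ifKOs held 80.1, 74.7 and 66.5 in Sal, 77.9, 107 and 102 in PTZ0, and 104, 99.96 and 108 in PTZ45. The lowest value was that of Cacna1a, -0.29 ± 0.17, and the intervals of the 26 members with a mean of at least 50 ran from -0.63 at the lowest to 1.39 at the highest. Fos and Npas4 were called in this interaction, with -3.18 and -3.88. The genotype difference was not tested between other pairs of treatments.

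Genes whose products bind or regulate these channels, 33 in a list chosen for their role, gave 11 lower calls and 1 higher call of 30 tested over all treatments, beside 11.5% lower and 7.76% higher of all genes, and their median log2 fold change was -0.06. Pex5l (TRIP8b), the auxiliary subunit that sets the surface number of HCN channels, fell in each treatment and over all treatments (log2 fold change -0.32, SE 0.04, adjusted p = 7.79e-17), from 4645 ± 208 normalized counts (SD, 8 libraries) to 3735 ± 173 (SD, 9 libraries), with no overlap. Stac2 (log2 fold change -0.68, SE 0.12, adjusted p = 2.84e-07), an adaptor of L-type channels, and Cabp1 (log2 fold change -0.40, SE 0.05, adjusted p = 6.01e-13), a calcium sensor of calcium channels, did not overlap between genotypes either. Rem2, a GTPase that inhibits calcium channels, fell (log2 fold change -0.43, SE 0.12, adjusted p = 0.00272), and Gem, of the same family, was not called (0.17 ± 0.22, SE).

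Of the intracellular FGFs, which bind the sodium channel tail, Fgf13 (-0.27), Fgf11 (-0.29) and Fgf12 (-0.15) fell and Fgf14 was not called (-0.04). Stac (-0.44), Cacng3 (-0.28), Nrcam (-0.10) and Fam155a (-0.11) fell, Nalcn, the sodium leak channel, rose (0.11), and Ank3, the scaffold of the axon initial segment, was not called (-0.11 ± 0.08, SE). In the treatment comparisons, Fgf13 rose in controls in PTZ45 against PTZ0 (log2 fold change 0.31, SE 0.09, adjusted p = 0.0383), and Sptbn4, the spectrin of the initial segment, fell in CBP-ifKOs in PTZ45 against Sal (log2 fold change -0.49, SE 0.10, adjusted p = 0.000578). The other partners were not called in any treatment comparison or in the interaction.

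Markers of cell types moved with genotype beside these channel genes, and their counts stand beside 11.5% of all genes lower and 7.76% higher over all treatments. Of the CA1 pyramidal cell markers, 3 of 4 fell over all treatments (Wfs1, Fibcd1 and Mpped1), and their summed level ran from 3918 to 4464 normalized counts in Control Sal, 3889 to 4398 in Control PTZ0, 3827 to 4458 in Control PTZ45, 2578 to 3480 in CBP-ifKO Sal, 2744 to 3058 in CBP-ifKO PTZ0 and 2639 to 2813 in CBP-ifKO PTZ45. Of the CA3 markers, 3 of 5 fell, with sums of 4119.5 to 4606 in controls and 3196 to 3997 in CBP-ifKOs. Of the dentate granule cell markers, 2 of 5 fell (C1ql2 and Trpc6) and Prox1 rose, with sums of 4765 to 5710 and 4866 to 5360. Of the interneuron markers 2 of 6 fell (Gad1 and Sst), with sums of 6438 to 6799 and 5752 to 6484, and why they fell was not tested.

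Of the oligodendrocyte precursor markers, 3 of 3 fell, with sums of 1522 to 1639 in controls and 1165 to 1391 in CBP-ifKOs, and of the astrocyte markers 2 of 5 fell. Among 5 general excitatory neuron markers 1 rose (Prox1, also listed for granule cells) and 1 fell (Grin2a). Of the markers of tissue outside the hippocampus, 1 of 4 for thalamus fell, and 1 of 4 for striatum fell and 1 rose. No marker of oligodendrocytes, microglia or endothelial and mural cells was called. Of the 5 choroid plexus markers 1 received an adjusted p over all treatments and was not called, and their sums ranged from 435 to 44033 between libraries. The highest sum was 10745 in Control Sal, 24297 in Control PTZ0 and 902 in Control PTZ45. In CBP-ifKOs it was 44033 in Sal, 32716 in PTZ0 and 30058 in PTZ45. Ttr was highest in CBP-ifKO Sal replicate 1, with 40502 normalized counts. No marker in these lists was at 0 in a library. The part of these cell type markers in the differences of the channel genes was not tested.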

How the data were processed

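RNA-seq libraries of mouse hippocampus were analysed from whole-number counts for each gene, deposited by the authors without normalization. According to the methods and processing notes, reads were trimmed with Trim Galore 0.6.4, aligned with STAR 2.6.1 to GRCm38, filtered on mapping quality and counted on Ensembl exons with Rsubread. Reads shared by near-identical genes are lost at the mapping filter. Of 18 count columns, 1, named like those of Control PTZ45, matched no sample and was not used. The members and lists were chosen with earlier results of these data known, and 3 genes of the rule are not reported here.

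Pairs of groups were fitted alone with the two-sided Wald test of DESeq2 1.42.0 in R 4.3.3, the test named in the methods, with its size factors and independent filtering. For the genotype over all treatments, 17 libraries were fitted with treatment as a term, and the interaction on the Sal and PTZ45 libraries. Calls had a Benjamini-Hochberg adjusted p under 0.05 over all genes. The scripts were tested on simulated data. Normalized counts use 1 scaling of all libraries, and levels divide these by the deposited exon length. Values by library are given for up to 12 called members with the smallest adjusted p and the most abundant member of each class, and in each comparison the extreme members with a mean of at least 50 are named. Partner genes called in any comparison and 5 others are also named. Alternatives were edgeR 4.0.16 (quasi-likelihood), TMM size factors, a filter of 10 counts in 2 libraries, no filter, 1 fit of all libraries, a GC correction (loess, span 0.5, genes with a mean of at least 20), the replicate number as a block, leaving out each library, and, added after the data were seen, the lane as a term.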

Additional observations from a re-analysis of the deposited data

How the results depend on the processing

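Counts of called members in the genotype comparisons depended on the processing. The 15 calls over all treatments became 13 to 18 under the alternatives fixed beforehand and 1 with the lane as a term, with or without the GC correction, where 12 of the 13 lower members kept their direction with larger SEs. In Sal the 2 calls became 4 in 1 fit of all libraries and 1 to 4 when a library was left out. In PTZ0 the 7 calls became 4 with edgeR, with the filter on low counts, with no filter and in 1 fit of all libraries, and 1 to 9 when a library was left out. In PTZ45 the 2 calls became 1 with edgeR and with no filter, 4 with TMM size factors, 6 in 1 fit of all libraries and 0 to 2 when a library was left out. For PTZ45 against PTZ0 in controls, the 0 calls became 1 with the GC correction (Cacna1a) and 0 to 4 when a library was left out, and for PTZ45 against Sal in CBP-ifKOs 0 to 1. The other treatment comparisons and the interaction stayed at 0 under each alternative. Replicate numbers did not pair the libraries: correlations of same-numbered libraries ran from -0.523 to 0.532 (median -0.0606). With the replicate number as a block, calls were 1 in Sal, 2 in PTZ0, 0 in PTZ45 and 14 over all treatments, and with the GC correction added 1, 2, 0 and 16. Cacna1g was the 1 member called in both of these fits in Sal and in PTZ0, and Hcn3, Hcn4 and Cacnb3 over all treatments were each lost in 1 of them. Leaving out a library took the log2 fold change of Hcn3, PTZ0 against Sal in controls, from -0.0602 (without Control Sal replicate 2) to 0.106 where an adjusted p was given and to 0.22 (without Control Sal replicate 1) where none was, and that of Scn7a, PTZ45 against PTZ0 in CBP-ifKOs, from -0.0022 (without CBP-ifKO PTZ0 replicate 1) to 0.200, and that of Hcn4 over all treatments turned to 0.0736 with lane and GC correction. These causes were not tested, except that leaving out a library or adding terms leaves fewer residual degrees of freedom. Depth limits Hcn4, Cacna2d4, Cacna1f, Cacna1s, Scn4a, Scn10a and Scn11a, which have means under 50 normalized counts.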

Other observations

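The spread of the sodium channel beta genes differed between the genotypes, which was noticed after the values were seen and was not tested. The SD of Scn2b was 40.6 normalized counts over the 8 control libraries, around a mean of 3351, and 151 over the 9 CBP-ifKO libraries, around 2963. The SD of Scn3b was 76.1 over control libraries and 195 over CBP-ifKO libraries. For Scn4b the order was the other way, with 27.8 in controls, or 17.1 without Control PTZ45 replicate 1, and 12.2 in CBP-ifKOs.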
